A study of Homo sapiens with 24 samples.

Results

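The expression of 10 genes of the transforming growth factor beta (TGF-beta) pathway was followed in U87 MG cells, a human glioblastoma line, after proton therapy (PT) with or without Si306, an inhibitor of the tyrosine kinase SRC. They are the ligand genes TGFB1, TGFB2 and INHBA, the TGF-beta induced matrix gene TGFBI, the inhibitory SMAD genes SMAD6 and SMAD7, and ID1, ID2, ID3 and ID4. Every gene spot of the array that carries 1 of these 10 names was taken. This gave 11 probes on 20 spots, out of 41000 probes with 30982 gene names, because TGFB1 has 1 probe on 10 spots and ID2 has 2 probes. All 11 passed the filter on dim probes, as did 30418 probes of the array.

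RNA was collected 24 h after irradiation, and 4 configurations were hybridized to 2-colour arrays by Agilent. Cells given protons alone, at 2 Gy (U87 2 Gy) or at 10 Gy (U87 10 Gy), were set against untreated U87 cells. Cells given 10 µM Si306 with protons (U87 Si306 + 2 Gy, and at the higher dose U87 Si306 + 10 Gy) were set against cells given the same dose of protons alone, so these ratios show what Si306 added, and Si306 without protons was not analysed here. The treated RNA was always in Cy5 and its control in Cy3, with no dye swap, so dye and treatment cannot be told apart in any ratio. Although the labels give 6 biological replicates of each configuration, the headers of the 24 tables show 8 physical arrays, each with 3 scans, so n = 2 arrays for each configuration after scans were averaged. The table labelled U87 2 Gy replicate 5 comes from an array of U87 10 Gy, and that labelled U87 10 Gy replicate 2 from an array of U87 2 Gy, and both were left out. Whether the 2 arrays hold RNA of separate cultures is not given in the sources used here, so p-values measure the spread between arrays, which may be technical. PT alone lay on 1 slide and the combined treatments on another.

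Ligands of the TGF-beta family are secreted as dimers and bind pairs of serine/threonine kinase receptors, which phosphorylate receptor SMADs that enter the nucleus with SMAD4. SMAD6 and SMAD7 are induced by the pathway and block it. The ID proteins are helix-loop-helix proteins without a DNA-binding region. They hold E proteins away from DNA, are classical targets of the bone morphogenetic protein (BMP) branch of the family, and are studied in glioblastoma for their part in stem-like cells.

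Probes of 4 members are printed, with 5′ on the left, because INHBA, TGFB1 and ID3 had the largest rises and ID2 had probes that disagreed.

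TGFB1, probe A_24_P79054: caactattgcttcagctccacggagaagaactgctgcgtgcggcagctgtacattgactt

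INHBA, probe A_23_P122924: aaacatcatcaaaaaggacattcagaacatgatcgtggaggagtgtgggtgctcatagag

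ID2, probe A_23_P143143: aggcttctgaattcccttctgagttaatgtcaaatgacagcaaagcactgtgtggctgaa

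ID3, probe A_23_P137381: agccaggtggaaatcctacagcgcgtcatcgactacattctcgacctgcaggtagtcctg

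Positions are those of the scanner files on build hg17, and no exon or UTR annotation of that build was used. The INHBA probe lies on the minus strand of chromosome 7 from 41502486 to 41502545, and the ID3 probe on the minus strand of chromosome 1 from 23630972 to 23631031. The TGFB1 probe is listed over 9661 bases of the minus strand of chromosome 19, from 46529982 to 46539642, which is longer than its 60 bases. The first ID2 probe, A_23_P143143, is likewise listed over 389 bases of chromosome 2, from 8773240 to 8773628, and the second ID2 probe, A_32_P69368, lies farther downstream, from 8774880 to 8774939. The ID4 probe lies on chromosome 6 from 19947489 to 19947548, the ID1 probe on chromosome 20 from 29657819 to 29657878, and the SMAD7 probe on the minus strand of chromosome 18 from 44700780 to 44700839. The TGFB2 probe lies on chromosome 1 from 215003179 to 215003238 and the TGFBI probe on chromosome 5 from 135427242 to 135427301. The SMAD6 probe is listed over 64558 bases of chromosome 15, from 64795864 to 64860421.

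The array as a whole sets the scale. In U87 2 Gy, 32% of all tested probes were called up and 25% down at an adjusted p under 0.05 (limma, Benjamini-Hochberg adjustment over all probes). The shares were 31.4% up and 26.8% down in U87 10 Gy, 36.4% up and 28.8% down in U87 Si306 + 2 Gy, and 33% up and 27.7% down in U87 Si306 + 10 Gy. A call that also reached 1.5-fold was made for 3.79%, 4.76%, 4.79% and 3.55% of the probes in the same order, so size separates probes better than the test does. Of the 11 member probes, 4 were up and 4 down in U87 2 Gy, 3 up and 6 down in U87 10 Gy, 4 up and 5 down in U87 Si306 + 2 Gy, and 4 up and 4 down in U87 Si306 + 10 Gy. Keeping spots that the scanner marked for their local background, a setting chosen after seeing the data, ended 38 of the member calls below. After protons alone at 2 Gy those of TGFB1 (log2 ratio 0.23 under this setting), TGFB2 (-0.04), INHBA (0.26), ID1 (0.11) and ID4 (-0.32) ended, and at 10 Gy those of TGFB2 (-0.12), SMAD7 (-0.13) and ID3 (0.12, its size without the setting). With Si306 at 2 Gy those of TGFB2 (-0.04), INHBA (-0.09), SMAD7 (-0.15) and ID4 (0.08) and of the first ID2 probe ended. With Si306 at 10 Gy every call but that of ID1 ended, with log2 ratios of -0.17 for the second ID2 probe, 0.15 for ID3, -0.11 for SMAD7, -0.08 for ID4, 0.04 for TGFB1 and -0.04 for INHBA. Member probes that also reached 1.5-fold numbered 1, 2, 1 and 2. The median size of the log2 ratio was 0.22, 0.18, 0.27 and 0.24 over the members against 0.13, 0.13, 0.16 and 0.14 over all probes. The members were chosen with earlier results of these data known, and the part of that choice in the larger medians was not tested.

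**Figure D1:**
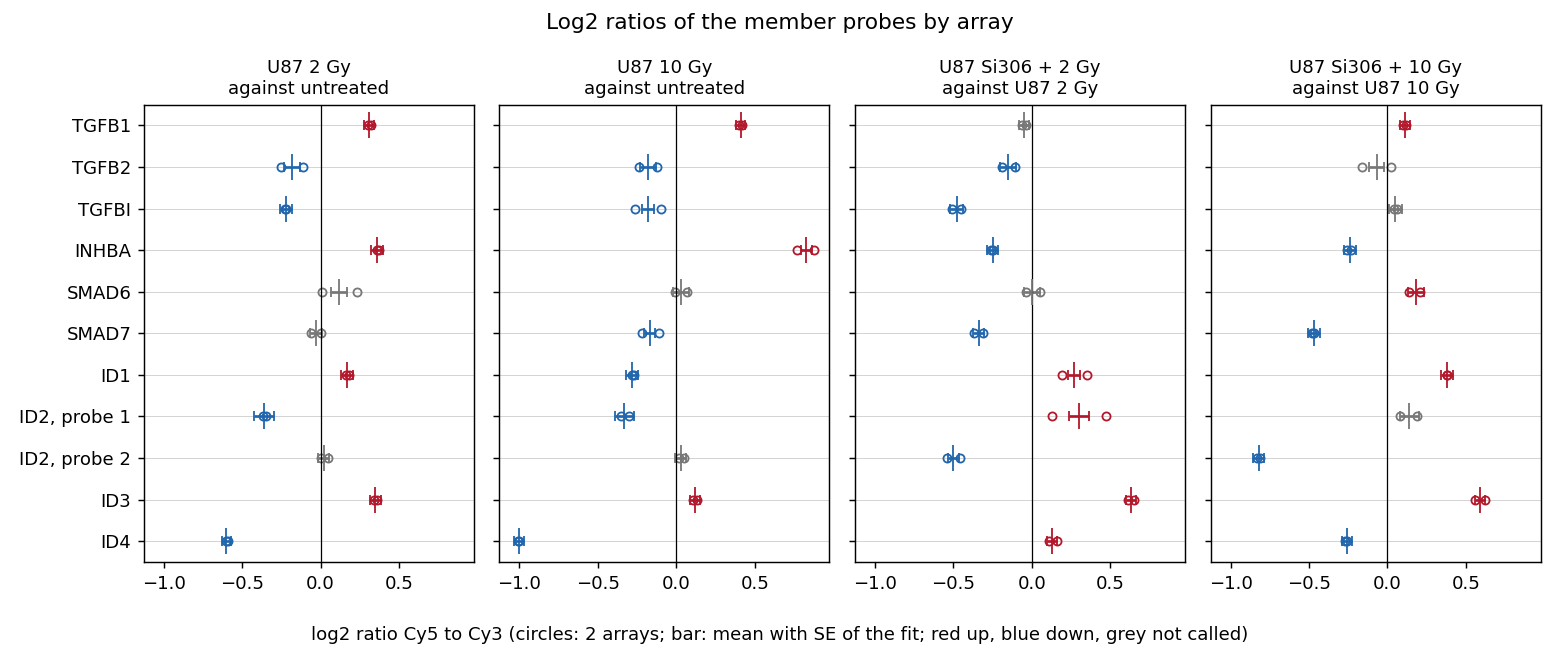
Log2 ratio of Cy5 to Cy3 (x axis) for the 11 member probes in the 4 configurations, with circles for the 2 arrays, a bar for the mean and whiskers for the standard error of the fit; ID2 probe 1 is A_23_P143143 and probe 2 is A_32_P69368. INHBA and ID4 stand farthest from 0 after protons alone, and ID3 and the second ID2 probe after Si306 was added.

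INHBA, which encodes the subunit of activin A, showed the largest rise of the group after protons alone. Its log2 ratio was 0.37 and 0.36 on the 2 arrays of U87 2 Gy and 0.77 and 0.88 on those of U87 10 Gy. Every array of the higher dose thus lay above both arrays of the lower dose. The mean rise was 1.29-fold at 2 Gy (adjusted p = 7.69e-06) and 1.77-fold at 10 Gy (log2 0.83, SE 0.0361, adjusted p = 1.43e-08), a change exceeded in size by 1.73% of all tested probes. With Si306 added, INHBA was lower than after protons alone on all 4 arrays, at -0.26 and -0.25 for 2 Gy and -0.26 and -0.23 for 10 Gy. On the log2 scale INHBA fell by 0.25 at 2 Gy (adjusted p = 9.94e-05) and by 0.24 at 10 Gy (adjusted p = 0.000154), each with an SE of 0.0361. Median centring gave 0.61 in U87 2 Gy. Over the settings planned beforehand the INHBA log2 ratio with Si306 ran from -0.43 to -0.23 at 2 Gy and from -0.4 to -0.18 at 10 Gy.

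TGFB1, the founding ligand of the family, rose after protons alone by less. Its log2 ratio was 0.32 and 0.30 in U87 2 Gy and 0.42 and 0.40 in U87 10 Gy. These are rises of 1.24-fold (SE 0.0315 on the log2 scale, adjusted p = 8.99e-06) and 1.33-fold (adjusted p = 9.52e-07). With Si306 added it was -0.06 and -0.04 at 2 Gy, which was not called (adjusted p = 0.165), and 0.10 and 0.12 at 10 Gy, which was called (mean 0.11, adjusted p = 0.00963) but lost the call when either array of that configuration was left out or a curve on probe GC content was added (adjusted p = 0.0661). Median centring gave 0.54 and 0.62 after protons alone and 0.32 in U87 Si306 + 10 Gy. The direction at 2 Gy with Si306 turned to 0.19 when scans were centred on their median in place of loess.

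TGFB2, a second isoform of the ligand, gave a dim signal, between 65.0 and 103 intensity units above background in Cy3. Its log2 ratio was -0.11 and -0.25 in U87 2 Gy, -0.24 and -0.12 in U87 10 Gy, -0.19 and -0.11 in U87 Si306 + 2 Gy, and 0.02 and -0.16 in U87 Si306 + 10 Gy. The first 3 means, -0.18, -0.18 and -0.15, were called (adjusted p = 0.0106, 0.0110 and 0.0223), and each lost its call without 1 of its own arrays (array 2 of U87 2 Gy, array 1 of U87 10 Gy, either array of U87 Si306 + 2 Gy). With the scanner's own ratio the third was larger, at -0.34, but not called (adjusted p = 0.0528). With median centring TGFB2 read -0.49, -0.40, -0.30 and -0.17 in the 4 configurations, all called.

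TGFBI, a secreted matrix protein named for its induction by TGF-beta, fell most in U87 Si306 + 2 Gy. There the 2 arrays read -0.45 and -0.51, a mean 1.39-fold fall (log2 -0.48, SE 0.0408, adjusted p = 1.95e-06). In U87 Si306 + 10 Gy they read 0.04 and 0.06, and the gene was not called (adjusted p = 0.306). After protons alone the arrays read -0.23 and -0.22 at 2 Gy and -0.10 and -0.26 at 10 Gy, with means of -0.22 (adjusted p = 0.000739) and -0.18 (adjusted p = 0.00262), of which the second was lost without array 2. The probe is bright, and its sign depended on the intensity correction: with median centring in place of loess it read 0.33 in U87 2 Gy, 0.28 in U87 10 Gy and 0.46 in U87 Si306 + 2 Gy. The same setting called TGFBI up in U87 Si306 + 10 Gy, at 0.70 (adjusted p = 5.44e-06).

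SMAD7 encodes an inhibitory SMAD that binds the activated type I receptors. Its log2 ratio was 0.00 and -0.06 in U87 2 Gy, not called (adjusted p = 0.501), and -0.22 and -0.11 in U87 10 Gy, a mean of -0.17 (SE 0.0371, adjusted p = 0.00269) that lost its call without array 1. Median centring turned both means, to 0.21 and 0.04. With Si306 added it was lower on all 4 arrays, at -0.37 and -0.31 for 2 Gy and -0.48 and -0.47 for 10 Gy. The falls were 1.27-fold (adjusted p = 1.31e-05) and 1.39-fold (adjusted p = 1.33e-06), and the second exceeded all but 6.89% of tested probes in size. Median centring gave -0.16 for the first.

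SMAD6, the inhibitory SMAD of the BMP branch, was at the limit of detection. Cy3 was well above background on 3 of the 4 arrays of PT alone and on none with Si306. The log2 ratio was 0.23 and 0.01 in U87 2 Gy and -0.01 and 0.07 in U87 10 Gy, and neither mean was called (adjusted p = 0.067 and 0.651). In U87 Si306 + 2 Gy neither dye was well above background, so no fold is given. In U87 Si306 + 10 Gy Cy3 was well above background on neither array and Cy5 on 1 of 2. The probe was called there (adjusted p = 0.011, lost without array 2 and with the GC curve at adjusted p = 0.0548), but no rise is read from it and no fold is given. Median centring turned its sign in both configurations of protons alone, to -0.40 and -0.37. Over the settings planned beforehand the SMAD6 mean in U87 2 Gy ran from -0.40 to 0.49 and was called in 8 of 20.

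The ID genes moved in different directions from each other. ID4 fell most of all member probes after protons alone. Its log2 ratio was -0.60 and -0.59 in U87 2 Gy and -1 and -1.01 in U87 10 Gy, and the arrays of the 2 doses did not overlap. The mean fall was 1.51-fold at 2 Gy (SE 0.0317, adjusted p = 8.34e-08, and -0.35 on the log2 scale with median centring) and 2.01-fold at 10 Gy (adjusted p = 1.38e-09), which 0.904% of tested probes exceeded in size. With Si306 added ID4 read 0.16 and 0.11 at 2 Gy (mean 0.13, adjusted p = 0.0034, lost without array 1, and 0.45 with median centring) and -0.26 and -0.27 at 10 Gy (mean -0.26, adjusted p = 3.17e-05). The 2 doses of the combined treatment were thus on opposite sides of 0, although with median centring the value at 10 Gy was -0.03 and not called.

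ID3 was higher on every array of the study. It read 0.36 and 0.34 in U87 2 Gy, 0.13 and 0.11 in U87 10 Gy, 0.65 and 0.61 in U87 Si306 + 2 Gy, and 0.62 and 0.56 in U87 Si306 + 10 Gy. The rise from protons alone was 1.28-fold at 2 Gy (SE 0.0328, adjusted p = 5.04e-06) and 1.08-fold at 10 Gy (adjusted p = 0.00986). The latter call was lost when either of its arrays was left out. It was also lost with 1 scan per array (adjusted p = 0.0555) and with a curve on probe GC content (0.04, adjusted p = 0.278). Si306 added 1.55-fold at 2 Gy (adjusted p = 5.87e-08) and 1.51-fold at 10 Gy (adjusted p = 1.18e-07), the only member probe above 1.5-fold in that direction with Si306. Median centring gave 0.70 and 0.39 after protons alone.

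ID1 was the member whose sign differed between the doses of protons alone. It read 0.16 and 0.18 in U87 2 Gy (1.12-fold up, SE 0.039, adjusted p = 0.00353) and -0.27 and -0.28 in U87 10 Gy (1.21-fold down, adjusted p = 0.000107), although median centring gave 0.11 at 10 Gy. The rise at 2 Gy was not called when all 24 tables entered under their labels (adjusted p = 0.428). With Si306 it was higher on all 4 arrays, at 0.19 and 0.35 for 2 Gy and 0.38 on both arrays for 10 Gy. These rises were 1.2-fold (adjusted p = 0.00012) and 1.30-fold (adjusted p = 9.77e-06). Median centring gave larger log2 ratios for ID1, 1.04 and 0.90 with Si306 and 0.63 in U87 2 Gy. ID1 and ID3 therefore were both called up with Si306 at each dose.

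The 2 probes of ID2 differed in call or direction in every configuration. The first, A_23_P143143, read -0.35 and -0.37 in U87 2 Gy and -0.35 and -0.30 in U87 10 Gy, with falls of 1.28-fold (SE 0.0628, adjusted p = 0.000529) and 1.25-fold (adjusted p = 0.00102), the latter larger but not called with the scanner's own ratio (-0.40, adjusted p = 0.0556). The second, A_32_P69368, read 0.05 and 0.00 in U87 2 Gy and 0.02 and 0.05 in U87 10 Gy and was not called (adjusted p = 0.595 and 0.468). With Si306 the second probe fell, at -0.46 and -0.54 for 2 Gy and -0.83 and -0.81 for 10 Gy. Its falls were 1.42-fold (SE 0.0348, adjusted p = 4.19e-07) and 1.77-fold (adjusted p = 2.47e-08), and 0.881% of tested probes exceeded the latter. Over the settings planned beforehand these log2 ratios ran from -0.68 to -0.36 at 2 Gy and from -1.15 to -0.72 at 10 Gy. The first probe read 0.47 and 0.13 in U87 Si306 + 2 Gy and 0.08 and 0.19 in U87 Si306 + 10 Gy, but its Cy3 was not well above background on any of these 4 arrays, so the ratio is a bound of at least 1.23-fold higher at 2 Gy (adjusted p = 0.00146, lost without array 1) and at least 1.10-fold at 10 Gy, where it was not called (adjusted p = 0.0804). For these bounds the brighter channel is set, after loess and Aquantile scaling, against the higher of the dim probe's own signal and the lowest signal well above background, and without a dye swap they are open to dye bias. Median centring gave the first probe 0.01 and -0.03 after protons alone and -0.22 and -0.23 with Si306, and it called the second probe up after protons alone, at 0.40 and 0.35. No direction for ID2 as a gene is drawn from these data.

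The dose was tested directly as the difference of the mean ratios at 10 and 2 Gy. After protons alone, 9.15% of all probes were higher at 10 Gy and 10.5% lower, and of the 11 members 1 was higher and 3 were lower. INHBA was higher at 10 Gy, with a log2 difference of 0.46 (SE 0.051, adjusted p = 0.000217). ID1 was lower at 10 Gy, with a difference of -0.44 (SE 0.0552, adjusted p = 0.000433), ID4 with -0.41 (SE 0.0449, adjusted p = 0.000209) and ID3 with -0.23 (SE 0.0464, adjusted p = 0.00575). ID1, ID3 and ID4 thus were lower at 10 than at 2 Gy, whereas the probes of ID2 did not pass the test (differences of 0.04, SE 0.0889, and 0.01, SE 0.0493). TGFB1, TGFB2, TGFBI, SMAD6 and SMAD7 did not pass it either, with differences between -0.13 and 0.10. With spots marked for local background kept, the calls of INHBA (0.28, adjusted p = 0.449), ID4 (-0.31, adjusted p = 0.611) and ID3 (-0.26, adjusted p = 0.0856) ended and that of ID1 did not.

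For the effect of Si306, 9.35% of all probes were higher at 10 than at 2 Gy and 11.8% lower, and 2 members were higher and 2 lower. TGFBI was higher at 10 Gy by 0.53 (SE 0.0577, adjusted p = 0.000182), a dose difference exceeded by 1.10% of tested probes, which was 0.23 (adjusted p = 0.0431) with median centring. TGFB1 was higher by 0.16 (SE 0.0445, adjusted p = 0.0245), a call that was lost without either array of U87 Si306 + 10 Gy, without either array of U87 Si306 + 2 Gy, with no filter on dim probes (adjusted p = 0.051) and with median centring (adjusted p = 0.0704). ID4 was lower at 10 Gy, with a difference of -0.40 (SE 0.0449, adjusted p = 0.000228), and so was the second ID2 probe with -0.32 (SE 0.0493, adjusted p = 0.00153). For INHBA, ID3 and ID1 the differences were 0.01 (SE 0.051), -0.03 (SE 0.0464) and 0.11 (SE 0.0552), none of which passed the test. With spots marked for local background kept, all 4 calls ended, at 0.51 for TGFBI (adjusted p = 0.102), 0.06 for TGFB1, -0.17 for ID4 and, with the direction turned, 0.05 for the second ID2 probe.

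**Figure D2:**
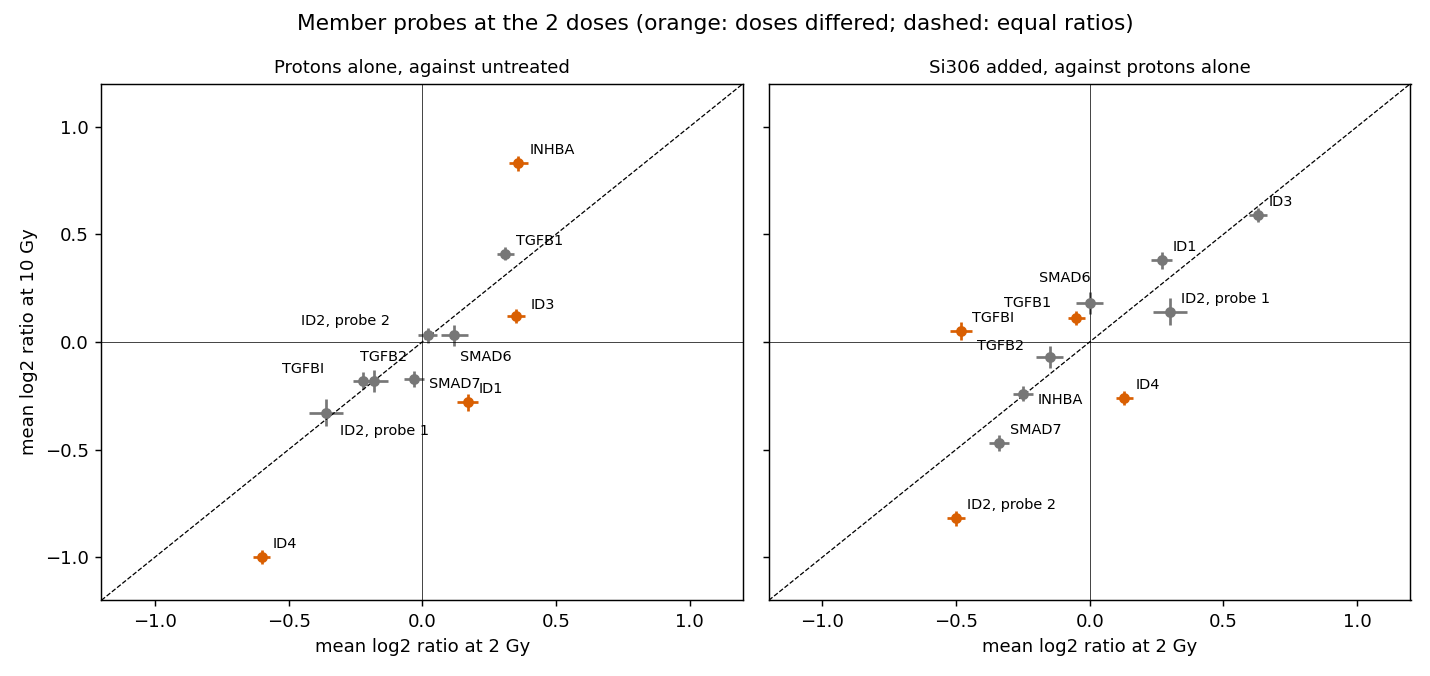
Mean log2 ratio of each member probe at 2 Gy (x axis) and 10 Gy (y axis), for protons alone against untreated cells (left) and Si306 added to protons against protons alone (right), with standard errors of the fit from n = 2 arrays for each mean. Orange probes had an adjusted p under 0.05 for the difference between doses; INHBA lies above the line of equal ratios and ID1, ID3 and ID4 below it after protons alone, and TGFBI and TGFB1 lie above it and ID4 and the second ID2 probe below it with Si306.

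The sum of the PT ratio and the Si306 ratio gives a net ratio of the combined treatment against untreated cells, provided that the cells given protons alone were alike on both slides. The signals of the member probes differed between the slides. Both Cy3 samples of the Si306 arrays are labelled as U87 cells given protons alone, and their ratio to untreated cells had been measured on the first slide. Relative to the median probe, Cy3 of the first ID2 probe, not well above background on any Si306 array, was at least 36.6-fold lower on the arrays of U87 Si306 + 2 Gy than on those of U87 2 Gy, against a ratio of -0.36 on the log2 scale for protons. The second ID2 probe was 11.2-fold lower, ID3 5.14-fold, TGFBI 3.81-fold, ID1 2.41-fold and INHBA 2-fold lower. SMAD7 and ID4 were 1.5-fold and 1.32-fold lower, whereas TGFB1 was 1.07-fold lower and TGFB2 1.44-fold higher. At 10 Gy the first ID2 probe was at least 36.1-fold lower and ID3 5.43-fold. Over all tested probes the median size of this difference was 0.505 at 2 Gy and 0.486 at 10 Gy on the log2 scale, and 7.44% and 7.06% of probes differed by over 4-fold. On the first slide Cy3 held untreated cells, so these folds hold the effect of protons too. Cells given protons alone were in Cy5 there. Cy3 of the second slide minus that Cy5, across dyes, was 0.25 and 0.51 on the log2 scale for ID4 at 2 and 10 Gy. It was -0.35 and -0.57 for TGFB1 and -1.31 and -1.83 for INHBA. At 2 Gy it was -3.45 for the second ID2 probe, -2.66 for ID3 and -1.65 for TGFBI. For ID1, SMAD7 and TGFB2 at that dose it was -1.38, -0.5 and 0.76. Raw ID2 signal above background in Cy3 was 1780 to 2720 units on the first slide and 35.9 to 45.2 on the second for the first probe. Slide, hybridization and the cells used for it cannot be told apart here, and no test is given.

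**Figure D3:**
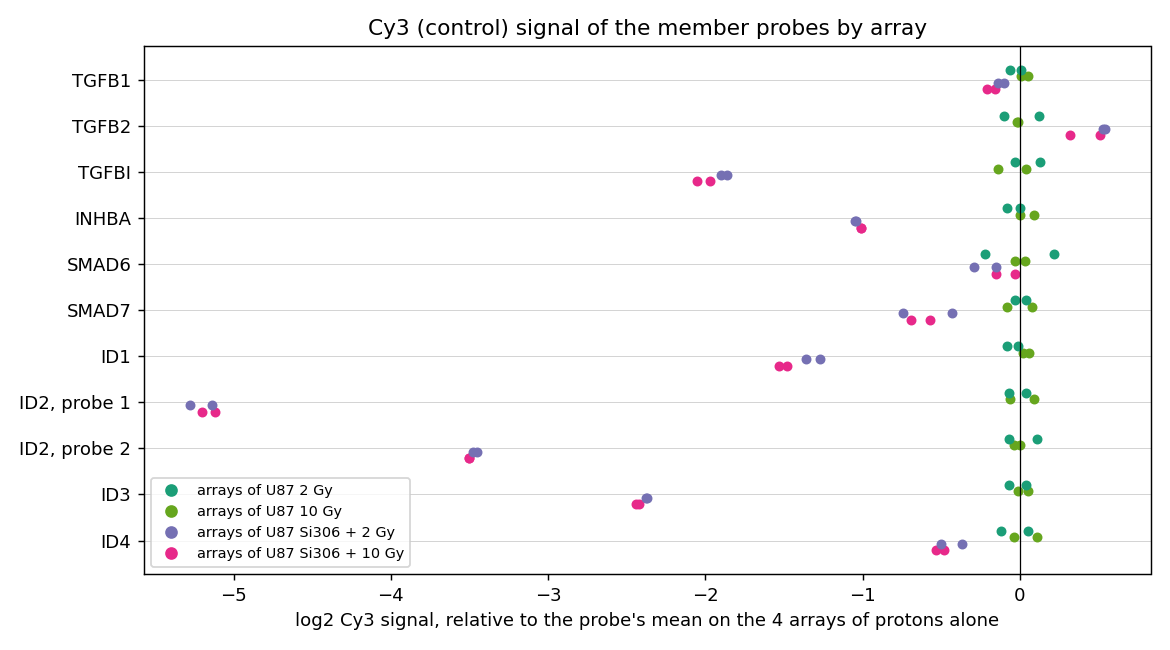
Log2 Cy3 signal of each member probe on each of the 8 arrays, centred on the median probe of the scan and shown relative to the probe's mean on the 4 arrays of protons alone (x axis). Cy3 held untreated cells on the arrays of U87 2 Gy and U87 10 Gy and cells given protons alone on the Si306 arrays, and the first ID2 probe, the second ID2 probe and ID3 lie farthest to the left.

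Detection of marker genes also differed between the slides. VIM, CD44 and NES were well above background in Cy5 on all 8 arrays. CHI3L1, a glycoprotein of mesenchymal glioblastoma, was above background on 4 of 4 arrays of the first slide and 0 of the second. SOX2, a stem cell factor, was above it on 4 of 4 arrays of the second slide by both probes, and on 0 and 1 of the first. S100B was above it on 1 array and GFAP on all 8 by 1 of 3 probes. Of the markers of other cell types, PTPRC and CD3D were above background on none, CD79A on all 8, PECAM1 on the 4 arrays of the second slide and CDH5 on 3 of the first. The part of these differences in the net ratios was not tested.

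With that limit, and with net ratios that median centring moved by over 1.5 times for most members, the net ratio at 2 Gy was called up for 39.7% and down for 27% of all probes, and at 10 Gy for 37.4% and 28.1%, with 10.7% and 11.6% called at 1.5-fold or more. Of the members, the net ratio was up for 3 and down for 5 at 2 Gy, while at 10 Gy it was up for 4 and down for 4, of which 2 and 4 reached 1.5-fold. ID3 had the highest net ratio at both doses, 1.97-fold at 2 Gy (log2 0.98, SE 0.0464, adjusted p = 4.69e-08, although with median centring ID1 stood above it at 1.67 against 1.51) and 1.64-fold at 10 Gy (adjusted p = 3.15e-07). ID4 had the lowest at 10 Gy, a 2.41-fold fall (log2 -1.27, SE 0.0449, adjusted p = 5.24e-09), against 1.38-fold at 2 Gy (adjusted p = 6.07e-06), where median centring gave 0.10. TGFBI had the lowest at 2 Gy (-0.70, SE 0.0577, adjusted p = 1.79e-06), where median centring gave 0.79, and was not called at 10 Gy (-0.13, adjusted p = 0.0638). SMAD7 fell by 0.37 and 0.64 (SE 0.0525, adjusted p = 9.89e-05 and 1.61e-06), where median centring gave 0.05 at 2 Gy. INHBA did not pass at 2 Gy (0.11, adjusted p = 0.0741, and 0.38 with median centring). At 10 Gy it was up by 0.58 on the log2 scale (adjusted p = 2.53e-06), just under the 1.5-fold limit of 0.585. That is below its 1.77-fold rise from protons alone. TGFB1 was up by 0.26 and 0.52 (SE 0.0445, adjusted p = 0.000391 and 2.07e-06). ID1 was up at 2 Gy (0.44, SE 0.0552, adjusted p = 4.43e-05), and its opposite ratios at 10 Gy left 0.10 (adjusted p = 0.122), against 1.02 with median centring. TGFB2 was down by both, at -0.33 (SE 0.0716, adjusted p = 0.00191) and -0.25 (adjusted p = 0.0106), the latter lost without array 1 of U87 10 Gy or array 2 of U87 Si306 + 10 Gy. The second ID2 probe was down at -0.48 (SE 0.0493, adjusted p = 9.37e-06), where median centring gave 0.05, and at -0.79 (adjusted p = 2.27e-07), and the first was not called (adjusted p = 0.575 and 0.084) and has no net value here, since its Si306 ratio is a bound. SMAD6 was called up at 10 Gy (adjusted p = 0.0264), but its Si306 part rests on channels that were not well above background, so no net value is given. That call was lost without array 1 or 2 of U87 10 Gy or array 2 of U87 Si306 + 10 Gy, with 1 scan per array and with the GC curve, and its sign turned with median centring. With spots marked for local background kept, net calls of TGFB1 (0.20 and 0.30), TGFB2 (-0.08 and -0.13), SMAD7 (-0.11 and -0.24), the second ID2 probe (-0.16 and -0.10) and ID4 (-0.24 and -0.72) ended at both doses, as did that of SMAD6 at 10 Gy.

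Other genes of the pathway were counted in 7 lists, of which 80 of 86 genes were tested with 129 probes. In U87 2 Gy 55 probes were up and 31 down, in U87 10 Gy 52 and 39, in U87 Si306 + 2 Gy 46 and 44, and in U87 Si306 + 10 Gy 34 and 49. The extracellular regulators, which hold latent TGF-beta in the matrix or bind BMPs, had 17 of 27 probes up and 1 down in U87 2 Gy and 18 up and 0 down in U87 10 Gy. With Si306 added to 2 Gy, 13 fell and 8 rose, and with Si306 added to 10 Gy, 14 fell and 6 rose. The receptor and common SMADs had 3 of 11 probes up and 6 down in U87 2 Gy and 1 up and 8 down in U87 10 Gy. They had 3 up and 5 down in U87 Si306 + 2 Gy and 3 up and 6 down in U87 Si306 + 10 Gy, and none reached 1.5-fold. Of the 15 receptor probes 6, 4, 7 and 3 were up and 5, 6, 4 and 7 down in the order of the configurations. None of them reached 1.5-fold in any configuration. Target genes had 15 of 28 probes up and 5 down in U87 2 Gy, 11 and 11 in U87 10 Gy, 13 and 8 in U87 Si306 + 2 Gy and 7 and 10 in U87 Si306 + 10 Gy. Of the 19 probes of other ligands, 6, 8, 4 and 5 were up and 3, 2, 2 and 1 down in the order of the configurations. The intracellular regulators had 7, 9, 9 and 9 of 24 probes up and 10, 9, 9 and 8 down. The E proteins, partners of the ID proteins, had 5 probes, of which 1, 1, 2 and 1 were up and 1, 3, 3 and 3 down. Beside the shares over all probes given above, no test was made of any list.

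**Figure D4:**
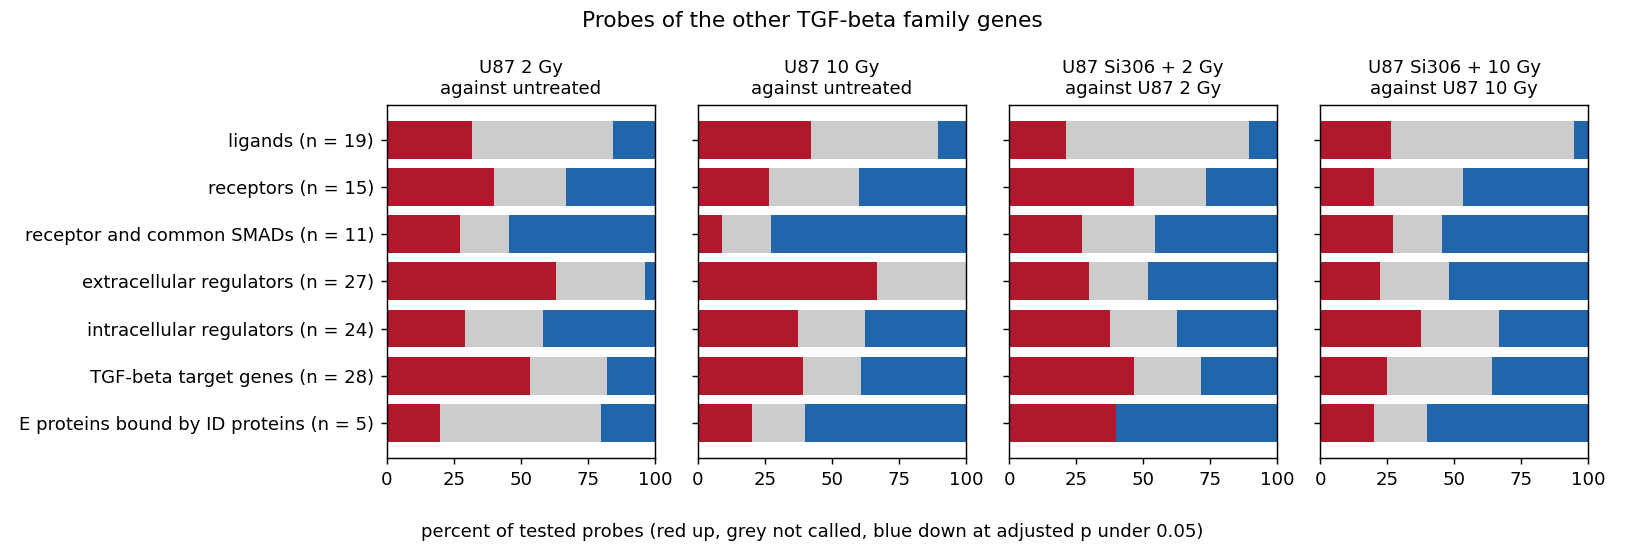
Percent of tested probes (x axis) that were up (red), not called (grey) or down (blue) at an adjusted p under 0.05 in 7 lists of TGF-beta family genes that are not members, in the 4 configurations; n is the number of probes. The extracellular regulators have 17 and 18 of 27 probes up after protons alone and 13 and 14 down with Si306 added.

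Among the listed genes with the largest changes, DCN, a proteoglycan that binds TGF-beta, was 3.45-fold up in U87 Si306 + 10 Gy (1.80 and 1.78 on the arrays, adjusted p = 4.3e-10) against 0.29 on 1 usable array at 2 Gy. GDF15, a stress-induced ligand of the family, was 2.42-fold up in U87 10 Gy (1.27 and 1.28, adjusted p = 7.39e-10) against a log2 ratio of 0.31 in U87 2 Gy. LOX, which crosslinks collagen, was 2.25-fold up in U87 Si306 + 2 Gy (adjusted p = 1.18e-09), and ANGPTL4 was 2.39-fold up in U87 Si306 + 10 Gy (adjusted p = 2.42e-09). COL1A1, a chain of type I collagen, was 1.74-fold up in U87 2 Gy (adjusted p = 9.12e-09). TSC22D1 was 1.72-fold up in U87 2 Gy (adjusted p = 9.29e-08). TOB1, which represses BMP signalling, was 1.76-fold up in U87 10 Gy by 1 probe (adjusted p = 3.41e-08) and by a second probe, at 0.81 on the log2 scale in both. COL1A2 was 1.80-fold up in U87 Si306 + 2 Gy (adjusted p = 6.17e-09).

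Several of them fell. TGIF1 (TGIF on the array), a corepressor of SMAD2, was 1.73-fold down in U87 10 Gy (adjusted p = 4.24e-08). PMEPA1 (TMEPAI on the array), a target that restrains receptor SMADs, was 1.71-fold down in U87 Si306 + 2 Gy by 1 probe (adjusted p = 2.67e-08) and at -0.12 by the other. LTBP2 was 1.75-fold down in U87 Si306 + 2 Gy (adjusted p = 8.07e-08), with 2 further probes down and 1 up. FKBP1A was 1.69-fold down in U87 2 Gy (adjusted p = 3.07e-08), with 2 of 3 other probes down as well. The probes of CHRD, a BMP antagonist, were opposed in U87 Si306 + 10 Gy at 1.10 and -0.32, and those of FN1, fibronectin, in U87 10 Gy at 0.88, 0.05 and -0.39, so neither gene has a single direction here.

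The patterns most like those of 3 members were found from the root mean square (RMS) difference of log2 ratios over the 8 arrays, leaving out names that are sequence identifiers alone. For INHBA these were RRM2 (RMS 0.0712), a subunit of ribonucleotide reductase, DDB2 (0.0746), a damage recognition factor, and TYMS (0.0765), thymidylate synthase. Their mean log2 ratios in U87 10 Gy were 0.76, 0.76 and 0.90. For ID3 they were C9orf95 (0.0594), NDFIP1 (0.0733) and DLGAP4 (0.0793), with 0.61, 0.71 and 0.59 in U87 Si306 + 2 Gy. For ID1 they were ADAMTS5 (0.0636), C1orf174 (0.0721) and MGC24039 (0.0775), with -0.22, -0.19 and -0.31 in U87 10 Gy. The points share arrays and slides, and no test was made.

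ID1 and ID3 were both up with Si306, so the 250 bases before their starts are shown from RefSeq (GRCh38.p14), with the SMAD box CAGAC on either strand in capitals.

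ID1, chr20:31605039-31605288, plus strand: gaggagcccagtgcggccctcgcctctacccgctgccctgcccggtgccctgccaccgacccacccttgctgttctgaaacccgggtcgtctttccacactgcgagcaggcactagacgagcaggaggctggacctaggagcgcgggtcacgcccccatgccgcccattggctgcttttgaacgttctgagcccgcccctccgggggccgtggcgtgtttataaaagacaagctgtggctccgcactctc

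ID3, chr1:23559502-23559751, minus strand: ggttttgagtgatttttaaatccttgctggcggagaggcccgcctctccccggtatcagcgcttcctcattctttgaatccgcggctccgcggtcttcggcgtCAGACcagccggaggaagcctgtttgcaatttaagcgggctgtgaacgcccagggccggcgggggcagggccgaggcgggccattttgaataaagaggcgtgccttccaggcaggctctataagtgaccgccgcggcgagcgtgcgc

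CAGAC, or its reverse complement GTCTG, is in 1 place of the ID3 window and in none of the ID1 window, and 38% of 35116 promoter windows of this length hold it. The GC-rich SMAD motif GGCGCC is in neither, and 16.4% of all windows hold it. The palindrome GTCTAGAC, which holds GTCT on each strand, is in 0.182% of all windows and, among the members, in that of SMAD6. All 10 members were found in the table, SMAD7 with 3 starts. These are matches of letters in a short window and say nothing of binding.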

How the data were processed

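The authors deposited scanner tables of Agilent Feature Extraction 9.5.3.1 for 24 hybridization labels, with the linear intensity of both dyes and its local background at 45015 spots and a log10 ratio after the software's background correction and dye normalization. The deposited series matrix carries the same log10 values after rounding: no entry differs by more than 0.005, and each column has a median of 0. Intensities were used here. The 10 members and all gene lists were chosen with earlier results of these data known.

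The 2 scans whose label disagreed with the other scans of their array (U87 2 Gy replicate 5 and U87 10 Gy replicate 2) were left out, so 22 of 24 scans were used. Their SD to the scans of their array was 0.0775 and 0.0760, and to those of their label 0.178 and 0.171. The SD between scans had a median of 0.0748 within an array and 0.107 between the 2 arrays of a configuration.

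Controls were removed, as was any spot with an outlier mark of either dye, on the spot or on its local background (2.98% to 5.73% of spots). Mean signals were corrected with normexp on the median local background (offset 50) and log2 ratios normalized by loess within each scan, with limma 3.58.1 in R 4.3.3 (data.table, version 1.17.8). Spots of a probe and scans of an array were averaged. A probe was kept if, in any configuration, a share of 0.667 or more of the arrays had either dye well above background. Models (lmFit, eBayes) were fitted to every probe on 8 arrays with 4 residual degrees of freedom. The empirical Bayes prior SD was 0.0549, on 6.67 degrees of freedom. A call is an adjusted p under 0.05. Cy5 was well above background for 63.4% to 74.7% of spots and at most 0.0115% of spots were saturated. The number of arrays limits the precision.

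On simulated intensities of 41000 probes, 54 to 57 of 67 probes changed 1.2-fold were recovered in the 4 configurations, as were all 67 changed 1.5-fold and all 66 changed 2-fold, with 2 to 19 false calls. Only probes with a brighter signal were changed, nearly all probes were left unchanged, and no dye bias by probe or intensity was added. The real data have dim members, far more calls and no dye swap, so these counts give no error rate for the member calls. Named genes are all member probes, the listed pathway genes with a called change of at least 1.5-fold (the 15 largest, of which 1 is not reported here), and 3 nearest patterns each for ID1, ID3 and INHBA. Alternatives were the scanner's ratio, the matrix, median centring, no background subtraction, other filters, other uses of the scans, the replicate block, a curve on GC content, leaving out arrays and, chosen after seeing the data, keeping spots marked for local background alone.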

Additional observations from a re-analysis of the deposited data

Results flagged for a closer look

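The 8 differences between the doses that passed an adjusted p under 0.05 in limma's test of the difference itself are given as 10 Gy minus 2 Gy on the log2 scale. After protons alone they were 0.46 for INHBA, -0.44 for ID1, -0.41 for ID4 and -0.23 for ID3. With Si306 added they were 0.53 for TGFBI, 0.16 for TGFB1, -0.40 for ID4 and -0.32 for the second ID2 probe. ID4 was called in both, and with spots marked for local background kept it was called in neither (-0.31, adjusted p = 0.611, and -0.17, adjusted p = 1). Under that setting the call of ID1 remained and the other 7 ended, with the second ID2 probe at 0.05.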

How the results depend on the processing

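Counts of called members of 11 probes did not move beyond 1.5 times under the scanner's ratio, the series matrix, median centring, uncorrected signals, either filter, 1 scan per array or the GC curve. Leaving out 1 array in turn gave 8 called for 2 Gy of protons alone, 6 to 9 for 10 Gy and for either dose with Si306, 4 and 3 to 5 for the dose differences of protons alone and Si306, and 8 to 9 and 6 to 9 for the net ratios at 2 and 10 Gy. Each scan as a sample without a replicate block gave 7 dose differences with Si306. The labelled number as a replicate block gave 7 for protons alone and 7 with Si306, in place of 4 and 4, with scans treated as samples. Same-numbered scans of different configurations had a median correlation of -0.00256, so the numbers do not pair them.

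With spots marked for local background alone kept, a setting chosen after seeing the data that ended the call of 38 of 88 member values, the fitted Cy5 background fell as low as -1080, against -6.92 to -3.45 without them, and the calls numbered 3 for 2 Gy of protons alone, 4 for Si306 at 2 Gy, 1 for Si306 at 10 Gy, 1 and 0 for the dose differences, and 4 and 3 for the net ratios. Of the ended calls, the second ID2 probe for dose with Si306 read 0.05 and SMAD6 in the net ratio at 10 Gy 0.00.

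Median centring in place of loess turned 20 member values that were called before or after, moved SMAD6 in U87 Si306 + 2 Gy from 0.00, and ended 8 calls, and the cause was not tested. The SMAD6 values that include Si306, net ones too, rest on channels not well above background and are given for their sign alone. In U87 2 Gy it gave TGFBI 0.33, SMAD6 -0.40, SMAD7 0.21 and the first ID2 probe 0.01. In U87 10 Gy it gave TGFBI 0.28, SMAD6 -0.37, SMAD7 0.04 and ID1 0.11. In U87 Si306 + 2 Gy it gave TGFB1 0.19, TGFBI 0.46, SMAD6 -0.93 and the first ID2 probe -0.22. In U87 Si306 + 10 Gy it gave SMAD6 -0.32 and the first ID2 probe -0.23. Net at 2 Gy it gave TGFBI 0.79, SMAD6 -1.33, SMAD7 0.05, the second ID2 probe 0.05 and ID4 0.10. Net at 10 Gy it gave TGFBI 0.98 and SMAD6 -0.69. Among the remaining alternatives, leaving out 1 array, the scanner's ratio, the matrix, 1 scan per array and the GC curve turned the sign of values that were called neither before nor after, 9, 5, 5, 2 and 2 in number, such as TGFB2 in U87 Si306 + 10 Gy at 0.02 without its array 2.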
